A study of Mus musculus with 8 samples.

Results

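The mitochondrial ribosomal protein genes of mouse intestinal intraepithelial lymphocytes were followed through a 24 h restimulation with anti-CD3. They were chosen by name, as the array identifiers that start with MRPL or MRPS and a digit, which gave 73 of the 31492 identifiers on the bead array. By their established roles 46 encode proteins of the large subunit and 26 of the small subunit, and the last, Mrps36, keeps a ribosomal name although its product is known as a component of the 2-oxoglutarate dehydrogenase complex. Of the 73, 66 were bright enough to be tested, 41 of the large and 25 of the small subunit. The other 7 (Mrpl19, Mrpl21, Mrpl32, Mrpl39, Mrpl45, Mrps14 and Mrps36) were above background on none of the 8 arrays, so only an upper bound of their signal was measured and no change is given for them.

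Intraepithelial lymphocytes are T cells that lie between the cells of the gut lining. Those used here came from C57BL/6 mice. All of them, the unstimulated ones included, had first been expanded for 48 h with anti-CD3 bound to the plate, at 1 μg/ml, and IL-2, IL-3, IL-4 and IL-15 and then kept for 14 days in IL-2, before sorting by CD8 chains. Total RNA was measured in 4 groups of 2 arrays: CD8αβ cells with the αβ T cell receptor and CD8αα cells, each unstimulated (0 h) and after 24 h on anti-CD3 at the same concentration. The labels do not agree on the receptor of the CD8αα cells (TCRγδ in the protocol, TCRαα or TCRcd in the sample names), so the subset is named by its CD8 chains. No group was cultured for 24 h without anti-CD3, so time in culture and anti-CD3 cannot be told apart. The labels do not say that replicates were separate cultures or animals, and a p-value here covers no more than the scatter among these arrays, possibly technical. As these are cultured bulk populations, fewer cells of a type and less RNA per cell cannot be told apart.

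Mitochondria carry their own ribosomes, built from ribosomal RNAs of the mitochondrial genome and proteins encoded in the nucleus, made in the cytosol and imported. These ribosomes translate the few subunits of the respiratory chain and ATP synthase that the mitochondrial genome encodes. Some of their proteins descend from bacterial ribosomal proteins, whereas others have no bacterial counterpart and were added during mitochondrial evolution. T cells enlarge their mitochondria after activation through the T cell receptor, and blocking mitochondrial translation is known to impair T cell function.

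Promoters of these genes are shown because many of the genes moved together. Sequences came from the RefSeq promoter table of build GRCm38.p6, which covers 250 bases before to 50 after each start. It matched 64 of the 73 genes with 70 promoters, and held no entry for Mrps28 or Mrpl38. Each promoter was searched on both strands for 4 motifs: the NRF1 core GCATGCGC, the ETS motif CCGGAAGT, the YY1 motif AAGATGGC and the E-box CACGTG. The NRF1 core can overlap its own reverse complement, and such overlaps count once per promoter. NRF1 and the ETS factor GABP are known regulators of nuclear genes for mitochondrial proteins, and the E-box is bound by Myc among others. The NRF1 core was present in 11.4% of the 70 promoters and 2.71% of all 32851 in the table, the ETS motif in 17.1% and 3.89%, the YY1 motif in 15.7% and 2.75%, and the E-box in 10% and 7.15%. Mrpl2 has 3 overlapping promoters that hold the same E-box, and counted per gene the E-box occurred in 7.81% of the 64 genes and 8.09% of all 27025, the other way round. Per gene the other 3 motifs occurred in 12.5%, 18.8% and 17.2% of the 64 genes, against 3.05%, 4.31% and 3.19% of all. At least 1 of the 4 motifs occurred in 45.7% of the 70 promoters and 15.0% of all. The shares over all cover every gene with an entry, whether or not it was tested on the arrays. No share over the tested genes alone was taken, so an excess common to expressed genes cannot be told apart. A match is a run of letters and says nothing of binding.

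Shown here are the 100 bases before the start, 5′ to 3′ on the strand of the gene, with motifs in capitals. The first 5 are the genes with an entry that passed the test in CD8αα cells. The last 4 are genes that did not pass but whose 24 h arrays all lay above all 0 h arrays, chosen after their values were seen, to show 1 or more of each other motif.
Mrps18b (chr17:35916441-35916540, minus strand): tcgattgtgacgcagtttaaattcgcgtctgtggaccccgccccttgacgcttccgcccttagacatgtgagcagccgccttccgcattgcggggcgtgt
Mrps6 (chr16:92058236-92058335, plus strand): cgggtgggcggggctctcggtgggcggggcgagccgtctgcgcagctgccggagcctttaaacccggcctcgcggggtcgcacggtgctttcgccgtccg
Mrps10 (chr17:47369097-47369196, plus strand): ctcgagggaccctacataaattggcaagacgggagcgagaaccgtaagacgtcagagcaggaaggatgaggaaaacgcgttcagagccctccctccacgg
Mrps2 (chr2:28467966-28468065, plus strand): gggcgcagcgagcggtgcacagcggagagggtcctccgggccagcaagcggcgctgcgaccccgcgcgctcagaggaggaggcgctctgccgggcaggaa
Mrpl20 (chr4:155802778-155802877, plus strand): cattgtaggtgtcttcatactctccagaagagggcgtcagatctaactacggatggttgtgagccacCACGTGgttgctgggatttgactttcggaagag
Mrps22 (chr9:98601680-98601779, minus strand): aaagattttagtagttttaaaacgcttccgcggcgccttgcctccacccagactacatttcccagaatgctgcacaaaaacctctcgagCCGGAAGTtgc
Mrps27 (chr13:99344686-99344785, plus strand): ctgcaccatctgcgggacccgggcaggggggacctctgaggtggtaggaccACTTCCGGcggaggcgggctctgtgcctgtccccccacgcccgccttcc
Mrpl22 (chr11:58171564-58171663, plus strand): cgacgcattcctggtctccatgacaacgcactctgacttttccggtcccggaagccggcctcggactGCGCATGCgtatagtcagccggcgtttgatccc
Mrpl36 (chr13:73330909-73331008, plus strand): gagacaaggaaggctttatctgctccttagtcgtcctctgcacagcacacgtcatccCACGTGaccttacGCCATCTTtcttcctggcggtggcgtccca

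The Mrpl20 E-box stood at -33 to -28, the ETS motif of Mrps22 at -11 to -4 and that of Mrps27, on the reverse strand, at -49 to -42. Outside the stretch shown, Mrps18b held the NRF1 core at -223 to -216 and again after the start. Of the 5 passing genes with an entry 2 held a motif, and of the 53 other tested genes with an entry 26 did.

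Signals are log2 intensities after background correction and quantile normalization, and a gene passed at a limma adjusted p under 0.05 over the 8331 genes tested. The fit holds the 4 group means and no term for replicate number. Between 28.3% and 32.3% of identifiers were above background on each array, and replicates correlated at 0.955 to 0.967. All 8 T cell markers were above background in every group, and their summed signal was 49951 to 57741 on the 0 h arrays and 21598 to 38847 on the 24 h arrays. Of 4 B cell markers, Igh-6 and Cd79b were detected and the other 2, Cd79a and Ms4a1, were above background nowhere. The sum of the 4 was 1944 to 2374 in unstimulated CD8αα cells and 435 to 445 after stimulation, against 359 to 459 and 98.8 to 182 in CD8αβ cells. Of 6 epithelial markers on the array, Cdh1 alone was detected, with sums of 165 to 309 at 0 h and 66.03 to 85.5 at 24 h. Of 6 macrophage and monocyte markers, Cd14 alone was detected, with sums of 43.0 to 98.3 at 0 h and 47.1 to 78.0 at 24 h. None of the 3 dendritic and 3 red cell markers was above background, with sums of 24.6 to 39.4. The T cell, B cell and epithelial sums were lower at 24 h in both subsets, without overlap, and the dendritic and red cell sums overlapped between times. The macrophage sums were lower at 24 h in CD8αβ cells and overlapped in CD8αα cells. The part of these sums in the 24 h comparisons below was not tested. Replicate 2 of both CD8αα groups was on a second chip, and the other 6 arrays shared a chip.

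In CD8αα cells 7 of the 66 genes rose over 24 h and none fell, and most of the rest had positive changes that did not pass. The 7 were Mrps18b, Mrps6, Mrps10, Mrps28, Mrps2, Mrpl38 and Mrpl20, with changes between 0.87 and 1.73 on the log2 scale. Across all genes tested 5.04% rose and 6.51% fell. The median change of the 66 was 0.49, against 0.02 over all genes tested, and 58 were positive and 8 negative. At an unadjusted p under 0.05, 27 of the 66 were higher and none lower, against 1338 and 1315 of all genes. The count of 7 rested on single arrays. It was lower whenever 1 of the 8 arrays was left out, which leaves 1 array in a group, and so were the counts over all genes. The median change of the 66 then ran from 0.29 to 0.64. With replicate number as a block more of the 66 passed, as did more of all genes (1589 higher and 1470 lower, given below). Both 24 h arrays lay above both 0 h arrays for 40 of the 66 (31.6% of all genes) and below them for 2 (29.4%).

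Mrps18b, a small-subunit protein and 1 of the S18 paralogues of mammals, had signals of 8.85 and 8.21 in unstimulated CD8αα cells and 10.63 and 9.89 after 24 h, listed as replicates 1 and 2. The 24 h arrays were both higher. Mrps18b rose 3.33-fold (log2 change 1.73, SE 0.37, adjusted p 0.035), by 1.79 in replicate 1 and 1.68 in replicate 2. Its relatives had smaller values: Mrps18a, placed in the large subunit, had a change of 0.53 (adjusted p 0.14), and Mrps18c, the counterpart of the bacterial protein, one of -0.12 (adjusted p 0.76). The differences between these 3 paralogues were not tested.

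Mrps28, counterpart of the bacterial S1 protein, had signals of 8.96 and 8.94 at 0 h and 10.20 and 10.12 at 24 h in CD8αα cells. Its replicates lay close together and its groups far apart. It rose 2.31-fold (log2 1.21, SE 0.18, adjusted p 0.020), the lowest adjusted p among these genes. Mrps6, counterpart of bacterial S6, had 10.13 and 9.79 at 0 h and 11.19 and 11.46 at 24 h and rose 2.57-fold (log2 1.36, SE 0.28, adjusted p 0.031). Mrps10, counterpart of bacterial S10, had 8.02 and 7.63 at 0 h and 9.32 and 9.01 at 24 h and rose 2.53-fold (log2 1.34, SE 0.25, adjusted p 0.027). In both, every 24 h array was above every 0 h array of the subset. Mrps2, counterpart of bacterial S2, had 7.57 and 7.25 at 0 h and 8.74 and 8.29 at 24 h, and rose 2.16-fold (log2 1.11, SE 0.24, adjusted p 0.037).

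The other 2 genes that passed belong to the large subunit. Mrpl38, which has no bacterial counterpart and sits in the central protuberance, had signals of 9.46 and 9.41 at 0 h and 10.90 and 10.32 at 24 h. It rose 2.26-fold (log2 1.18, SE 0.28, adjusted p 0.043). Mrpl20, counterpart of bacterial L20, had 7.95 and 8.04 at 0 h and 8.74 and 9.0003 at 24 h and rose 1.83-fold (log2 0.87, SE 0.19, adjusted p 0.038). For both genes the groups did not overlap, and the higher 24 h array was replicate 1 for Mrpl38 and replicate 2 for Mrpl20. Replicate 1 and replicate 2 of this subset were on different chips, so each replicate's change is a change within 1 chip. All 7 were positive within both chips, with a lowest value of 0.79 for Mrpl20 on the chip of replicate 1. They were selected on these same arrays, so this is no separate support. No gene passed on chip 1 alone, where each CD8αα group is 1 array.

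**Figure D1:**
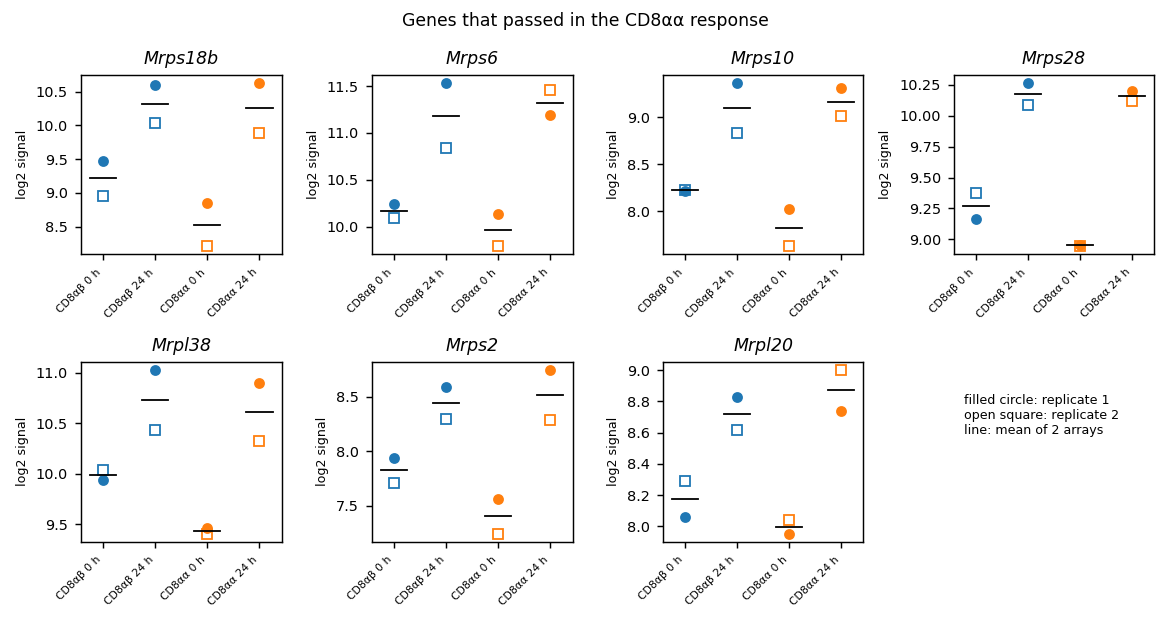
log2 signal (vertical axes, each with its own range) of the 7 genes that passed in CD8αα cells, in the 4 groups; circles are replicate 1, open squares replicate 2 and lines group means of 2 arrays. In both subsets every 24 h point of each gene lies above every 0 h point.

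At the low end in CD8αα cells were Mrpl24, Mrps16 and Mrps23, none of which passed. Mrpl24, counterpart of bacterial L24, had signals of 10.68 and 10.56 at 0 h and 10.59 and 10.13 at 24 h, a change of -0.26 (SE 0.22, adjusted p 0.45). Its groups overlapped. Mrps16, counterpart of bacterial S16, had 11.14 on both 0 h arrays and 10.92 and 11.01 at 24 h, a change of -0.18 (SE 0.16, adjusted p 0.48). Mrps23, with no bacterial counterpart, had a change of -0.18 (SE 0.20, adjusted p 0.56), made of 0.04 in replicate 1 and -0.40 in replicate 2.

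In CD8αβ cells a single gene, Mrps28, rose and none fell in the fit without a replicate term. In that fit 2.63% of all genes tested rose and 2.05% fell. With replicate number as a block more of the 66 passed, as did more of all genes (1138 higher and 1177 lower, given below). Mrps28 had signals of 9.17 and 9.38 at 0 h and 10.27 and 10.09 at 24 h, and the groups did not overlap. It rose 1.88-fold (log2 0.91, SE 0.18, adjusted p 0.041). It did not pass in any fit that left out 1 of the 8 arrays, where fewer of all genes passed too. The median change of the 66 genes was 0.30, against -0.01 over all genes, with 50 positive and 16 negative. At an unadjusted p under 0.05, 17 were higher and none lower, against 1033 and 1178 of all genes. Both 24 h arrays lay above both 0 h arrays for 35 of the 66 (28.8% of all genes) and below them for 3 (29.5%). All 4 CD8αβ arrays were on 1 chip.

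The highest changes in CD8αβ cells were those of Mrps18b, Mrpl1 and Mrps6, which were above that of Mrps28 but did not pass. Mrps18b had signals of 9.48 and 8.96 at 0 h and 10.59 and 10.04 at 24 h, a change of 1.10 (SE 0.37, adjusted p 0.12). Mrpl1, counterpart of the bacterial protein of the L1 stalk, had 7.51 and 7.32 at 0 h and 8.84 and 8.06 at 24 h, a change of 1.03 (SE 0.33, adjusted p 0.11). Mrps6 had 10.24 and 10.09 at 0 h and 11.54 and 10.83 at 24 h, a change of 1.02 (SE 0.28, adjusted p 0.080). In all 3 the 24 h arrays were above the 0 h arrays, but the replicates lay up to 0.78 apart, in Mrpl1 at 24 h. The lowest values were those of Mrps16 (-0.37, SE 0.16, adjusted p 0.20), Mrps23 (-0.25, SE 0.20, adjusted p 0.45) and Mrps9, counterpart of bacterial S9 (-0.20, SE 0.19, adjusted p 0.53). Mrps16 had 11.27 and 11.28 at 0 h and 10.94 and 10.87 at 24 h, so its groups were apart by more than either replicate pair.

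**Figure D2:**
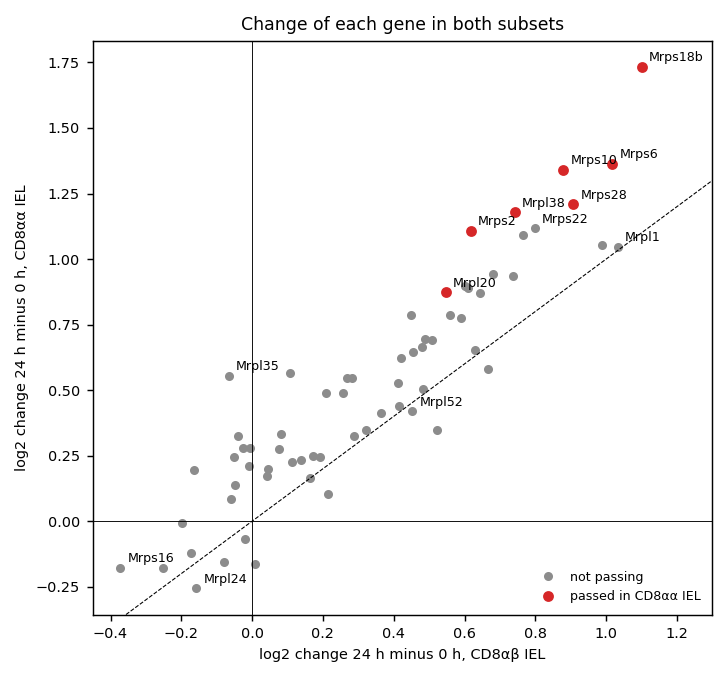
Change over 24 h of each of the 66 genes in CD8αβ cells (horizontal axis, log2) and CD8αα cells (vertical axis, log2), from means of 2 arrays a group; red points passed in CD8αα cells and the dashed line marks equal change. The changes run from -0.37 to 1.10 in CD8αβ and from -0.26 to 1.73 in CD8αα cells, and 58 of the points lie above the line.

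The 2 subsets share no arrays in these comparisons. The changes of the 66 genes in the 2 subsets correlated at r = 0.92 across genes, and those of all 8331 genes at r = 0.88, a description in which genes are not independent and replicates with the same number may share handling. Of the 66, 49 were positive in both subsets and 7 negative in both. In 43 (65.2%) all 4 within-replicate changes were positive, against 32.9% of all genes. In 3, Mrpl24, Mrps16 and Mrps18c, all 4 were negative (4.55%), against 31.6% of all genes. For 28 (42.4%) the lowest of the 4 arrays at 24 h was above the highest of the 4 at 0 h, against 17.4% of all genes.

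By subunit, 2 of 41 large-subunit genes and 5 of 25 small-subunit genes rose in CD8αα cells, and 0 and 1 in CD8αβ cells. The median change in CD8αα cells was 0.50 for the large and 0.41 for the small subunit, and in CD8αβ cells 0.28 and 0.36. The small subunit held both the largest positive change, that of Mrps18b, and 6 of the 8 negative ones in CD8αα cells. Among the 14 large-subunit genes without a bacterial counterpart, every change was positive in both subsets, with medians of 0.52 in CD8αα and 0.30 in CD8αβ cells. The 26 large-subunit genes with one had medians of 0.50 and 0.20 and 24 and 18 positive changes. No difference between these classes was tested. Mrps30, named for the small subunit but found in the large, had changes of 0.35 in CD8αα and 0.32 in CD8αβ cells and passed in neither (adjusted p 0.28 and 0.35).

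**Figure D3:**
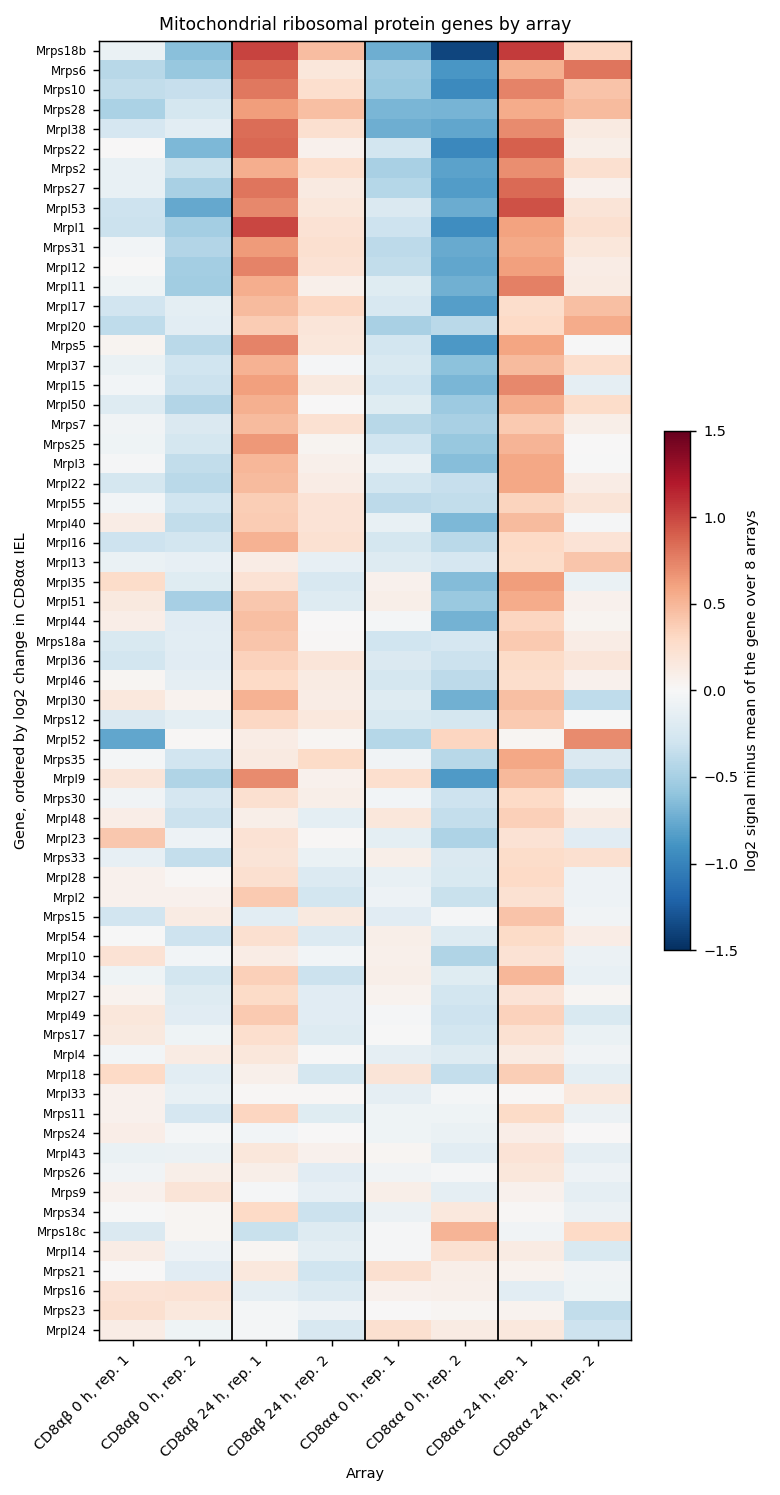
log2 signal of the 66 genes (rows, ordered by their change in CD8αα cells) on the 8 arrays (columns), minus the mean of the gene over all arrays; red is above and blue below that mean. Rows at the top turn from blue at 0 h to red at 24 h in both subsets, and within each group most rows are redder in replicate 1.

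Before stimulation no gene passed between the subsets, and none had an unadjusted p under 0.05. Across all genes tested 0.288% passed (369 were higher and 216 lower in CD8αα cells at an unadjusted p under 0.05). The median of CD8αα minus CD8αβ was -0.17, against -0.02 over all genes, with 14 positive and 52 negative. Both CD8αα arrays lay below both CD8αβ arrays for 21 of the 66 (19.7% of all genes). The values furthest apart were those of Mrps18b (-0.69, 95% interval -1.57 to 0.19), Mrpl30 (-0.56, -1.35 to 0.23) and Mrpl38 (-0.55, -1.21 to 0.10) on one side and Mrps18c (0.34, -0.25 to 0.92), Mrpl52 (0.33, -0.58 to 1.24) and Mrps21 (0.24, -0.26 to 0.75) on the other. Mrpl30 and Mrps21 are counterparts of bacterial L30 and S21, and Mrpl52 has none. The median difference was -0.016 after blocking on chip and -0.039 within chip 1. Chip 1 held both replicates of CD8αβ but only replicate 1 of CD8αα cells, so chip and replicate number cannot be told apart here. Between samples of replicate 1, all on chip 1, the median was -0.12, and between those of replicate 2, across chips, -0.20.

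At 24 h no gene passed either, and none had an unadjusted p under 0.05. Across all genes tested 0.216% passed (177 were higher and 151 lower at an unadjusted p under 0.05). The median of CD8αα minus CD8αβ was 0.03 with 38 positive and 28 negative, against 0.0021 and 50.4% positive over all genes. It was 0.15 after blocking on chip, where chip and replicate number again cannot be told apart. Between samples of replicate 1 it was 0.0060, and between those of replicate 2 0.0096. The values furthest apart were those of Mrps18c (0.39, 95% interval -0.20 to 0.98), Mrpl13 (0.35, -0.07 to 0.77) and Mrpl52 (0.30, -0.61 to 1.21), and, below 0, Mrpl9 (-0.34, -1.48 to 0.80), Mrpl30 (-0.28, -1.07 to 0.51) and Mrpl1 (-0.19, -0.98 to 0.60). Mrpl13 and Mrpl9 are counterparts of bacterial L13 and L9. Each of these 6 intervals reaches beyond a change of 0.5 on the log2 scale.

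The change over 24 h was tested for a difference between the subsets, as CD8αα minus CD8αβ. Of the 66 genes none passed, none had an unadjusted p under 0.05, and the share of all genes tested that passed was 0% (155 at an unadjusted p under 0.05). The median difference was 0.19, with 58 positive and 8 negative, against 0.02 and 53.0% positive over all genes. Mrps18b differed by 0.63 (95% interval -0.61 to 1.88), Mrpl35, counterpart of bacterial L35, by 0.62 (-0.60 to 1.84) and Mrps2 by 0.49 (-0.323 to 1.303). At the other end were Mrpl9 at -0.17, Mrps21 at -0.17 and Mrpl43, with no bacterial counterpart, at -0.11. So the 6 genes that passed in CD8αα and not in CD8αβ cells were not shown to respond differently between them. Leaving out replicate 2 of CD8αβ at 24 h took the median to 0.0053, and leaving out replicate 1 of CD8αα at 24 h took it to 0.018.

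The signals of these genes also differed by replicate number. Replicate 1 had the higher signal in all 4 groups for 39 of the 66 (59.1%), against 27.7% of all genes, and the lower signal in all 4 for 1 (1.52%), against 17.9%. The median of replicate 1 minus replicate 2 was 0.19 and 0.38 in CD8αβ cells at 0 h and 24 h and 0.27 and 0.33 in CD8αα cells, against 0.04 to 0.08 over all genes. The largest mean differences were those of Mrpl9 (0.81), Mrps22 (0.75) and Mrps18b (0.61).

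Mrps22, a small-subunit protein with no bacterial counterpart, shows how far this went. Its signals in CD8αβ cells were 8.95 and 8.26 at 0 h and 9.80 and 9.002 at 24 h, and in CD8αα cells 8.66 and 7.97 at 0 h and 9.84 and 9.03 at 24 h. In CD8αβ cells replicate 1 at 0 h and replicate 2 at 24 h lay close together, while in both subsets the change within each replicate was 0.74 to 1.18. The change over 24 h was 0.80 in CD8αβ (SE 0.44, adjusted p 0.29) and 1.12 in CD8αα cells (SE 0.44, adjusted p 0.13), and did not pass. Mrpl9 had 8.89 and 7.79 in unstimulated and 9.13 and 8.26 in stimulated CD8αα cells, so that its replicates lay further apart than its groups. Mrpl52 ran the other way, with a mean difference of -0.53.

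**Figure D4:**
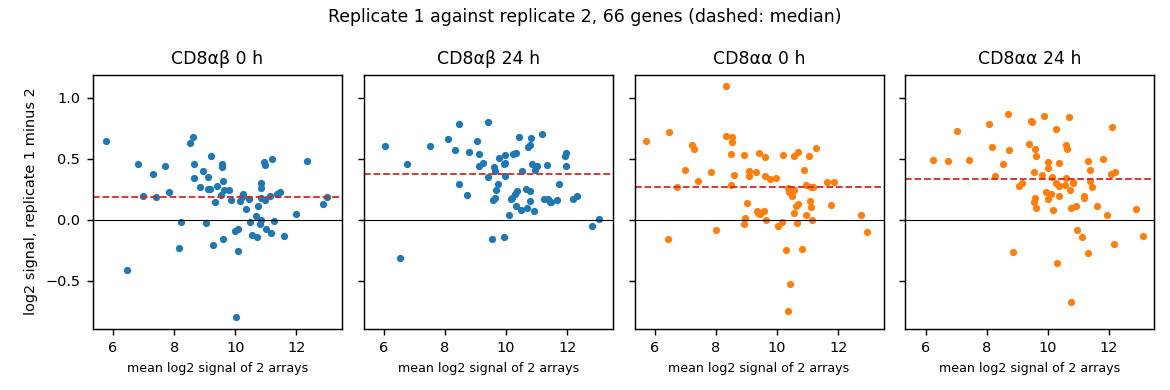
Replicate 1 minus replicate 2 (vertical axis, log2) against the mean log2 signal (horizontal axis) of the 66 genes in each group; dashed lines are the medians, 0.19, 0.38, 0.27 and 0.33 from left to right. Most points lie above 0 in every group.

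The brightest identifiers were those of Mrpl33, Mrps24 and Mrpl23, with group means up to 13.11 for Mrpl33, and their changes were between -0.05 and 0.33 in both subsets, none passing. The dimmest tested were Mrpl51, Mrps15 and Mrpl35. Mrpl51 was above background on 6 arrays and all other tested genes on 8. Brightness depends on each probe, so these signals do not rank the genes by abundance.

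Genes that work with the mitochondrial ribosome were read beside it, in lists drawn up by hand. Of 5 tested genes in a list of mitochondrial ribosomal proteins under other names, Ptcd3, a pentatricopeptide protein of the small subunit, rose in CD8αα cells (log2 0.84, adjusted p 0.044), and none passed in CD8αβ cells. This list leaves out Mrpl42, which the array carries under an older name and which did not pass, with changes of 0.46 in CD8αα (adjusted p 0.30) and 0.11 in CD8αβ cells (adjusted p 0.83). None of 10 translation factors passed in either subset, with median changes of 0.53 in CD8αα and 0.48 in CD8αβ cells. Of 17 genes of ribosome assembly and rRNA modification, the GTPase gene Noa1 rose in CD8αα cells (0.89, adjusted p 0.049). Of 11 mitochondrial aminoacyl-tRNA synthetases, the methionyl enzyme Mars2 rose in CD8αα cells (1.31, adjusted p 0.029). Of 11 genes of mitochondrial DNA maintenance and transcription, Elac2, which trims tRNA ends, rose in CD8αα cells (1.38, adjusted p 0.046). None of these 3 lists held a gene that passed in CD8αβ cells, and none of 7 upstream regulators passed in either subset. The changes of these 7 ran from -0.92 to 1.47 in CD8αα cells (median 0.25) and from -0.43 to 1.13 in CD8αβ cells (median 0.38). In each subset 5 were positive and 2 negative. At an unadjusted p under 0.05, 3 were higher in CD8αα and 2 in CD8αβ cells, and none was lower. Of all 8331 genes 1338 and 1033 were higher at that level.

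The mitochondrial import list held more passing genes. Of 18 tested, 6 rose in CD8αα cells and none in CD8αβ cells, with medians of 0.74 and 0.51. The 3 with the largest changes were the matrix chaperonin gene Hspd1 (1.66, adjusted p 0.025), Timm10, a chaperone of the intermembrane space (1.49, adjusted p 0.030), and Hspe1, the partner of Hspd1 (1.38, adjusted p 0.020). The other 3 were Timm8a1, Hspa9 and Timm17a.

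A list of nuclear ribosome assembly, which builds the cytosolic ribosome, had larger changes. Of 30 tested, 14 rose in CD8αα and 3 in CD8αβ cells, none fell, and all 30 were positive in both, with medians of 1.20 and 0.72. Srm, which the list includes, encodes spermidine synthase, an enzyme of polyamine synthesis and not an assembly factor, and had a change of 2.26 in CD8αα cells (adjusted p 0.046). Without it 13 of 29 rose in CD8αα and 3 in CD8αβ cells, with medians of 1.19 and 0.71. The largest changes in CD8αα cells next to Srm were those of Nop2, an rRNA methyltransferase (1.89, adjusted p 0.032), and of Rrp9, a U3 particle protein (1.83, adjusted p 0.022). The 3 in CD8αβ cells were Rrp9 (1.64, adjusted p 0.038), Pno1 (1.43, adjusted p 0.021) and Rrp12 (1.32, adjusted p 0.047), the last 2 factors of small-subunit assembly.

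The genes for proteins of the cytosolic ribosome itself had median changes near 0. Single genes ran from -0.67 to 0.54 in CD8αα and from -1.02 to 0.33 in CD8αβ cells. Many were bright, up to 15.81 for Rpl41, and whether changes of such bright signals are compressed was not tested. None of 69 tested passed in either subset (0 higher, and 2 lower in CD8αβ and 1 lower in CD8αα cells at an unadjusted p under 0.05), with medians of -0.07 in CD8αα and 0.05 in CD8αβ cells. The list of oxidative phosphorylation held 64 tested subunits, most from complexes that hold products of mitochondrial translation. Of these 64, Cox7a2l, a factor of respiratory supercomplexes, fell in CD8αα cells (-1.09, adjusted p 0.021) and no other passed. Their medians were 0.04 and -0.14. The medians of the mitochondrial ribosomal protein genes, 0.49 and 0.30, thus lay between those of nuclear ribosome assembly and those of the cytosolic ribosomal proteins in both subsets, and no difference between lists was tested.

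**Figure D5:**
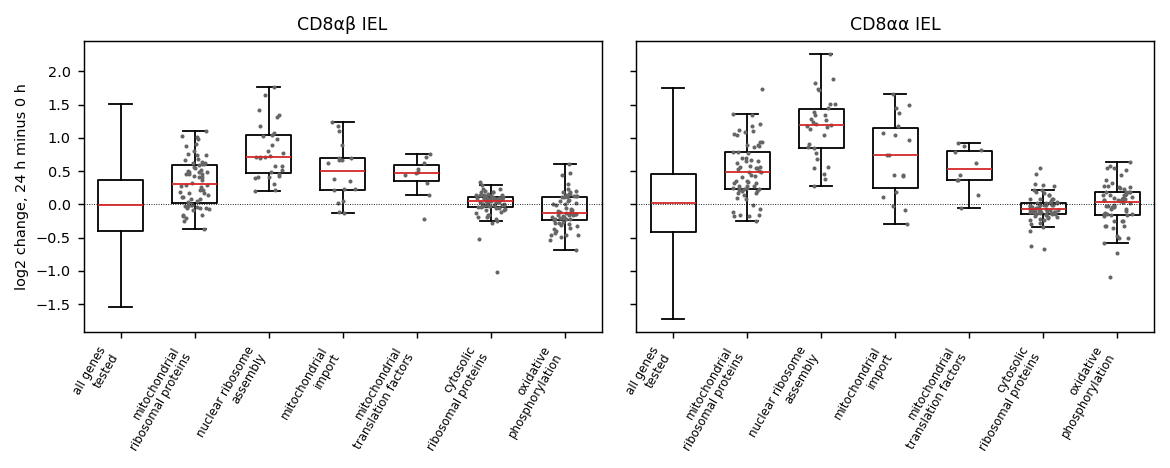
log2 change over 24 h (vertical axis) in CD8αβ (left) and CD8αα cells (right) for all genes tested and for 6 gene lists; boxes give quartiles with the median in red, whiskers reach 1.5 box lengths, and points are genes (not drawn for all genes). The median of the mitochondrial ribosomal protein genes is 0.30 on the left and 0.49 on the right, below that of nuclear ribosome assembly (0.72 and 1.20).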

How the data were processed

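Total RNA of 8 samples was amplified, biotin-labelled and read on Illumina bead arrays. The deposited non-normalized table gives the mean bead intensity, bead number and detection p-value per identifier, per the file headers. Some identifiers average several probes. The submitters' deposited log2 values come from lumi, per the submitters' processing notes, and served as an alternative. Array build and probe sequences are not given in the sources used here.

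Intensity was corrected by normexp, with background from the 22828 single-probe identifiers and an offset of 16, quantile-normalized and taken to log2. Of the 73 identifiers 44 are single-probe and 29 averaged. An identifier was tested where both arrays of at least 1 group were above the signal at a detection p-value of 0.01, with 1 identifier per named gene, the brightest, leaving 8331 genes. limma 3.58.1 in R 4.3.3 fitted the 4 group means with 4 residual degrees of freedom, and p-values were adjusted by Benjamini-Hochberg. The small number of arrays limits the precision: the median half-width of a 95% interval was 0.59 on the log2 scale. The fit was tested on simulated data.

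Genes named are those that passed, the 3 highest and 3 lowest changes of each comparison, the 3 brightest and 3 dimmest, the 3 with the largest replicate difference, and Mrps36, Mrps30 and Mrps18a, with up to 3 passing genes per list and direction. The genes and the lists were chosen with earlier results of these data known. Alternatives covered the background, offset, normalization, filter, deposited log2 values, every identifier on its own, the replicate number and the chip as blocks, chip 1 alone and leaving out each array. A further cell type marker is not reported here and is left out of the marker sums.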

Additional observations from a re-analysis of the deposited data

How the results depend on the processing

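In CD8αα cells 7 genes passed, against 420 higher and 542 lower of all genes tested. With background from all identifiers 3 did, with each array centred on its median 2, without a filter 2, with the deposited log2 values 13, on chip 1 alone 0, and 0 to 5 when 1 array was left out. In CD8αβ cells 1 passed, against 219 higher and 171 lower of all genes tested. With background from all identifiers 2 did (1 higher and 1 lower, Mrps16 at -0.59), with array medians 0, with every identifier on its own 0, with the deposited log2 values 2, on chip 1 alone 0, and 0 whenever 1 array was left out. With a replicate block the counts were 32 and 20, all higher. Over all genes that block gave 1589 higher and 1470 lower in CD8αα and 1138 and 1177 in CD8αβ cells. In CD8αα cells background from all identifiers gave 147 higher and 262 lower, array medians 191 and 341, and the deposited log2 values 382 and 527. In CD8αβ cells the same settings gave 80 and 62, 122 and 144, and 212 and 205. Without a filter 220 and 260 of 21635 passed in CD8αα cells. With every identifier on its own 179 and 124 of 9961 did in CD8αβ cells. Same-numbered samples deviated together in every pair of groups (r 0.492 to 0.667 over 8331 genes). The main fit has no term for this, so there it counts as scatter between replicates. With 2 numbers, and no label saying what they stand for, whether they pair the samples was not tested. Mrps28 in CD8αα cells passed in 15 of 19 alternatives and the other 6 genes in 7 to 10. For Mrpl20 it was 7 of 18, as it was detected on 0 arrays by the deposited detection p-value and not tested with that filter.

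The median change stayed positive in both subsets under every alternative run. In CD8αα cells it was 0.35 with background from all identifiers, 0.43 with an offset of 50, 0.41 without a filter, 0.36 with the deposited log2 values and 0.29 to 0.64 with 1 array left out. In CD8αβ cells it was 0.20 with background from all identifiers, 0.14 with array medians (40 positive and 26 negative, where all genes shifted to -0.23) and 0.19 to 0.49 with 1 array left out. In 2 settings added after seeing the data, centring on the genes tested gave 0.56 and 0.40, and single-probe identifiers alone gave 0.45 in CD8αα cells.

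The median subset difference at 0 h was -0.073 with background from all identifiers and -0.10 with array medians, where all genes shifted to 0.05. It was -0.016 after blocking on chip, -0.039 for the 6 arrays of chip 1 and -0.27 to -0.039 with 1 array left out. At 24 h it was 0.016 with background from all identifiers and 0.26 with array medians, where all genes shifted to 0.25. It was 0.0082 with the deposited detection p-value, 0.033 without a filter and 0.026 with the deposited log2 values. It was 0.15 after blocking on chip and 0.17 for chip 1. It turned to -0.0087 when centred on the genes tested, and ran from -0.13 to 0.22 with 1 array left out. It was -0.13 without replicate 2 of CD8αβ and -0.13 without replicate 1 of CD8αα at 24 h. The median difference of the responses was 0.092 with background from all identifiers and 0.0053 to 0.37 with 1 array left out. With array medians it was 0.39, where all genes shifted to 0.19. Mrps23 in CD8αα cells turned to 0.041 on chip 1 alone and ran from -0.39 to 0.034 with 1 array left out. The cause of these changes was not tested.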

Other observations

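Among the 66 genes, the third with the lowest mean signal had median changes of 0.66 in CD8αα and 0.52 in CD8αβ cells, and the third with the highest had 0.30 and 0.07. Across these genes the mean of both changes correlated with mean signal at r = -0.30 (Spearman's rho -0.37), and across all 8331 genes at r = 0.00 (rho 0.02). Signal depends on the probe, and no test was run.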
